A study of Mus musculus with 8 samples.

Results

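The genes of the sarcomere, the contractile unit of striated muscle, were followed in the left ventricle of mice with a mutated dystrophin gene, with and without loss of 1 copy of the sarcolipin gene. The set was chosen by gene symbol and holds 33 genes of the thin filament, thick filament, Z-disc and M-band, together with Ckm, Ckmt2 and Mb, which serve energy and oxygen supply. Of these, 30 genes with 138 transcripts had values, among 14578 genes with 33027 transcripts in all. Myl4, Myl7 and Tnni1 were not analysed here. All 30 genes passed the filter on low values, a linear value of 1 or more in 2 or more libraries, which 13783 genes passed.

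The 8 libraries fell into 3 genotypes. The mdx sln+/- mice (n = 3) carried the mdx mutation, which disrupts full-length dystrophin, and were heterozygous for Sln, the gene of sarcolipin, an inhibitor of the sarcoplasmic reticulum calcium pump. Dystrophin protein was not measured, and libraries without dystrophin here means those with this mutation. The mdx mice (n = 3) carried the mdx mutation alone, and the WT mice (n = 2) served as controls. Per the labels, all were C57 mice aged 6 months, and total RNA of the left ventricle was sequenced with paired ends. The labels do not give the substrain, how the Sln allele was made, or whether each library is a separate animal, so the p-values below measure the spread between these libraries.

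Values are log2 levels, the log2 of a normalized linear abundance plus 1, summed over the transcripts of a gene. No counts were used, so sequencing depth is unknown, and levels are compared between libraries and not between genes. Dmd lay at 4.09 to 4.25 in mdx sln+/- libraries, 4.22 to 4.32 in mdx libraries and 6.60 to 6.98 in WT libraries, in the order the labels call for, while Sln was not analysed here. The 7 ventricular myocyte markers were all measured. WT 2 was the lowest library for 18 of the 30 sarcomere genes, against 27.8% of all genes, and lay below WT 1 for 24 of 30, against 54.1% of all genes. WT 2 and mdx sln+/- 3 also had the lowest levels of the Y-linked gene Eif2s3y, at 0.92 and 1.31, against 6.11 in WT 1. Its level was 3.29 and 4.14 in mdx sln+/- 1 and 2, and 5.91, 4.01 and 5.79 in mdx 1, 2 and 3, so mdx sln+/- 1 differed from mdx 1 and mdx 3 too. In all transcripts, mdx 2 and mdx sln+/- 2 average to the mean of the other libraries of these genotypes. Their levels, of Eif2s3y and of all other genes, are therefore not independent of those libraries. Spreads and overlaps between libraries given below share this limit. Values without WT 2 are given beside the calls that are lost without it.

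In the sarcomere, myosin heads of the thick filament pull on actin of the thin filament, and troponin and tropomyosin on the thin filament make this depend on calcium. Thin filaments are anchored in the Z-disc, a lattice built on alpha-actinin that is also a site of mechanical sensing, and thick filaments are held together at the M-band by myomesins. In the heart the dystrophin complex links this apparatus, through the cell cortex, to the extracellular matrix.

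Among the 30 genes, those that passed the test were Z-disc or M-band genes, and the thin and thick filament genes of the set did not pass it. The classes hold few genes, and this split was not tested. It holds for this set only, since the filament genes Myh7 and Acta1, outside the set, passed in both comparisons with WT. In mdx sln+/- hearts against WT, 1 of the 30 genes rose (Myom2) and 3 fell (Pdlim3, Cmya5 and Myom1). In mdx hearts against WT, 3 rose (Des, Pdlim1 and Myom2) and 2 fell (Pdlim3 and Cmya5). Calls are at a Benjamini-Hochberg adjusted p under 0.05 over all 13783 genes, from limma. Over all genes, 15.9% were called in mdx sln+/- against WT (9.41% higher and 6.5% lower) and 15.1% in mdx against WT (8.15% higher and 6.94% lower), so counts of 4 and 5 among 30 are near the background and say nothing particular of the set. The balance of directions over all genes depends on the scaling: 1297 were higher and 896 lower in mdx sln+/- against WT, but 928 and 1147 under median-ratio scaling, and 1123 were higher and 957 lower in mdx against WT, but 1002 and 1094 under that scaling. Both comparisons use the same 2 WT libraries. Of the 9 calls, 3 were kept without each library in turn, those of Pdlim3 in both comparisons and of Cmya5 in mdx.

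The set as a whole moved little. The median log2 fold change of the 30 genes was 0.11 in mdx sln+/- against WT, beside 0.05 over all genes, and 0.08 in mdx against WT, beside 0.02 over all genes. The libraries of mdx sln+/- and WT did not overlap for 18 of 30 genes, 12 above and 6 below, where 59.8% of all genes did not overlap. Those of mdx and WT did not overlap for 15 of 30, 9 above and 6 below, where 51.4% of all genes did not. In such bulk RNA, fewer myocytes and less RNA per myocyte cannot be told apart.

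**Figure D1:**
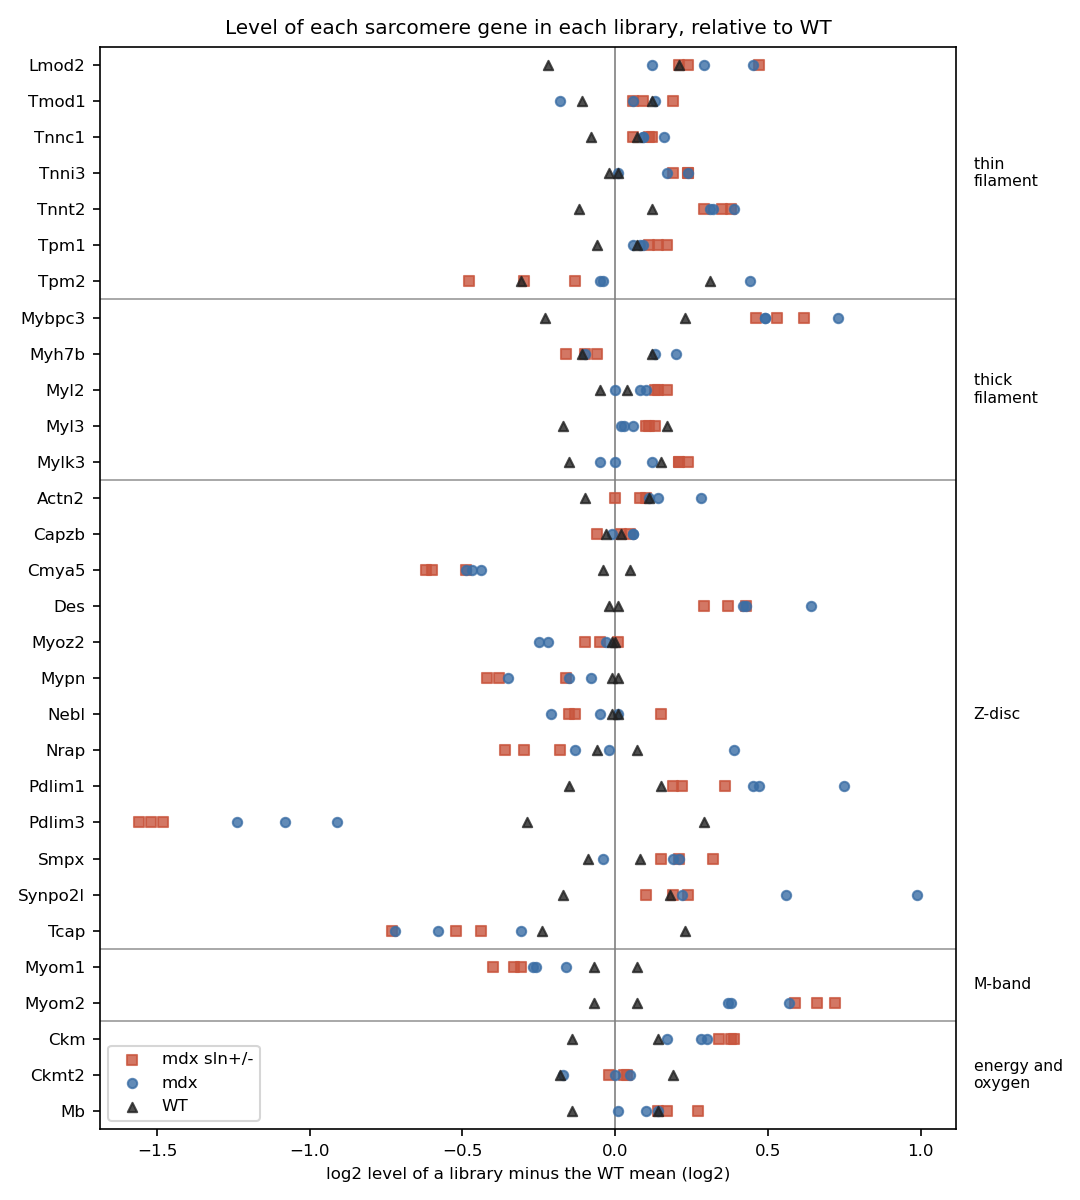
Log2 level of each of the 30 genes in each library minus the WT mean (x axis, log2), with genes grouped by place in the sarcomere (y axis). Squares are mdx sln+/- libraries, circles mdx libraries and triangles WT libraries. Pdlim3 and Cmya5 lie to the left of both WT libraries in all 6 libraries without dystrophin, and Des and Myom2 to the right, while most thin and thick filament genes lie close to the WT libraries.

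The strongest change was in Pdlim3 (chr8:45885461-45919548, plus strand, GRCm38), which encodes actinin-associated LIM protein, a partner of alpha-actinin at the Z-disc. Its log2 level was 3.16, 3.12 and 3.08 in mdx sln+/- libraries, 3.40, 3.56 and 3.73 in mdx libraries, and 4.35 and 4.93 in WT libraries. All 3 genotypes were apart, with mdx sln+/- lowest and WT highest, and the WT libraries lay further apart than those of either other genotype. Pdlim3 fell by 1.52 ± 0.18 (SE) in mdx sln+/- against WT, a 2.87-fold lower level (adjusted p = 0.00562), and by 1.08 ± 0.18 in mdx against WT, 2.12-fold lower (adjusted p = 0.0131). Without WT 2 these changes were -1.23 (adjusted p = 0.0207) and -0.79 (adjusted p = 0.0454). Among the 4 libraries whose names in the labels lack an index code, WT 1, WT 2, mdx 3 and mdx sln+/- 3, they were -1.56 (adjusted p = 0.0417) and -0.92 (adjusted p = 0.18).

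Pdlim3 has a pair of coding forms that exchange 1 exon for 2 others in the middle of the protein. The form with the single exon, Pdlim3-201, had a linear abundance of 5.77, 5.78 and 5.65 in mdx sln+/- libraries, 7.91, 8.67 and 9.74 in mdx libraries, and 14.2 and 24.1 in WT libraries. The form with the other 2 exons, Pdlim3-203, had 1.15, 1.11 and 1.03 in mdx sln+/- libraries, 1.08, 1.44 and 1.91 in mdx libraries, and 4.1 and 3.41 in WT libraries. Both forms fell in both comparisons, by 1.54 ± 0.21 and 1.18 ± 0.18 in mdx sln+/- (adjusted p = 0.0096 and 0.012) and by 1.00 ± 0.21 and 0.95 ± 0.18 in mdx (adjusted p = 0.0329 and 0.023), and the share of Pdlim3-203 overlapped between all groups. Without WT 2 both calls in mdx were lost, at -0.64 for Pdlim3-201 (adjusted p = 0.0893) and -1.06 for Pdlim3-203 (adjusted p = 0.07), and both were lost in the r1 and in the r2 columns alone. In mdx, the Pdlim3-201 call was lost without any library but WT 1, and the Pdlim3-203 call also without WT 1, mdx 1 or mdx sln+/- 1. Without mdx sln+/- 1 both calls in mdx sln+/- were lost (adjusted p = 0.0539 and 0.0719), and that of Pdlim3-203 also without mdx sln+/- 3. The exon of Pdlim3-201 is shown, because the abundant form turns on it, with the exon in capitals and 24 bases of the transcript on either side in lower case (chr8:45908469-45908656, plus strand, GENCODE M21).
Pdlim3-201: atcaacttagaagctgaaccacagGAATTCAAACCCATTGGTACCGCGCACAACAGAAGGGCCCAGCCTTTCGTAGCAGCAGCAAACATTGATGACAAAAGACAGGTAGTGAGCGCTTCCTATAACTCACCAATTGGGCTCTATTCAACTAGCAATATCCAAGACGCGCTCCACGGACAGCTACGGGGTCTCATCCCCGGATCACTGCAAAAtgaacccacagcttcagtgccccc

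Cmya5 (chr13:93040713-93144724, minus strand) encodes myospryn, a large Z-disc and costamere protein that binds alpha-actinin. Its log2 level was 8.87, 8.89 and 9.00 in mdx sln+/- libraries, 9.02, 9.05 and 9.00 in mdx libraries, and 9.54 and 9.45 in WT libraries. Every library without dystrophin lay below both WT libraries, and those of the 2 mdx genotypes touched. Cmya5 fell by 0.57 ± 0.08 in mdx sln+/- against WT (adjusted p = 0.00687) and by 0.47 ± 0.08 in mdx against WT (adjusted p = 0.0124), changes of 1.49-fold and 1.39-fold. Both calls held without WT 2, at -0.62 and -0.51, and that in mdx sln+/- was lost without mdx sln+/- 1, within a range of -0.67 to -0.49 over all alternatives. Antisense genes overlap Cmya5, and the use of strand in counting is not given, so reads of both may be mixed. Antisense genes also overlap Des, Nrap, Nebl, Mylk3, Ckm, Ckmt2 and Mb.

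Des (chr1:75360329-75368579, plus strand) encodes desmin, the intermediate filament that ties Z-discs to each other and to the membrane. Its log2 level was 10.78, 10.84 and 10.70 in mdx sln+/- libraries, 11.05, 10.84 and 10.83 in mdx libraries, and 10.42 and 10.39 in WT libraries. All 6 libraries without dystrophin were above WT, with mdx 1 highest. Des rose by 0.50 ± 0.11 in mdx against WT, 1.42-fold (adjusted p = 0.0249), and differed by 0.37 ± 0.11 in mdx sln+/- against WT (adjusted p = 0.0588). Without WT 2 the change in mdx was as large, at 0.49, with an adjusted p of 0.0995. The call was lost without WT 1 or mdx sln+/- 1 too, with values of 0.40 to 0.57 over all alternatives.

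Pdlim1 (chr19:40221173-40271842, minus strand) encodes another PDZ and LIM domain protein that binds alpha-actinin. Its log2 level was 5.11, 5.28 and 5.14 in mdx sln+/- libraries, 5.67, 5.37 and 5.39 in mdx libraries, and 5.07 and 4.77 in WT libraries. Here the mdx libraries stood above both other genotypes, and mdx sln+/- lay just above WT 1. Pdlim1 rose by 0.56 ± 0.14 in mdx against WT (adjusted p = 0.0363) and differed by 0.25 ± 0.14 in mdx sln+/- against WT (adjusted p = 0.237). Without WT 2 the value in mdx was 0.41 (adjusted p = 0.167). The call was lost as well without mdx 1, mdx 3, mdx sln+/- 1 or mdx sln+/- 3, with values of 0.41 to 0.70 over all alternatives.

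The other 9 Z-disc genes did not pass the test in either comparison. Actn2, alpha-actinin itself, had a log2 level of 10.38, 10.48 and 10.46 in mdx sln+/- libraries, 10.66, 10.52 and 10.49 in mdx libraries, and 10.49 and 10.28 in WT libraries. Its log2 fold change was 0.06 ± 0.11 in mdx sln+/- against WT, with a 95% interval of -0.19 to 0.31, and 0.18 ± 0.11 in mdx against WT, with an interval of -0.07 to 0.43. Tcap, the titin cap, had values of -0.56 ± 0.19 in mdx sln+/- and -0.53 ± 0.19 in mdx (adjusted p = 0.0826 and 0.0997), all 6 libraries being below both WT libraries. Mypn, myopalladin, had -0.32 ± 0.11 and -0.19 ± 0.11 (adjusted p = 0.0992 and 0.285). Synpo2l had 0.18 ± 0.22 in mdx sln+/- and 0.59 ± 0.22 in mdx (adjusted p = 0.601 and 0.113), and its mdx libraries ran widely, at 7.55, 7.12 and 6.78. For Myoz2, Nebl, Capzb, Nrap and Smpx the log2 fold changes lay between -0.28 and 0.23 over both comparisons.

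Both M-band genes changed, in opposite directions. Myom2 (chr8:15057653-15133541, plus strand) encodes M-protein and Myom1 (chr17:71002633-71126856, plus strand) encodes myomesin 1, both of which bind myosin at the M-band. The log2 level of Myom2 was 10.33, 10.39 and 10.26 in mdx sln+/- libraries, 10.24, 10.05 and 10.04 in mdx libraries, and 9.74 and 9.60 in WT libraries. Myom2 rose by 0.66 ± 0.10 in mdx sln+/- against WT, 1.58-fold (adjusted p = 0.00966), and by 0.44 ± 0.10 in mdx against WT, 1.36-fold (adjusted p = 0.0317). The log2 level of Myom1 was 9.71, 9.73 and 9.64 in mdx sln+/- libraries, 9.88, 9.77 and 9.78 in mdx libraries, and 10.11 and 9.97 in WT libraries. Myom1 fell by 0.35 ± 0.09 in mdx sln+/- against WT (adjusted p = 0.0381), and its value in mdx against WT was -0.23 ± 0.09 (adjusted p = 0.116). For both genes the 3 genotypes were apart in the same stepwise order, with mdx between mdx sln+/- and WT. Without WT 2 the 3 changes called were 0.59 (adjusted p = 0.0515) and 0.37 (adjusted p = 0.137) for Myom2 and -0.41 (adjusted p = 0.0682) for Myom1. The Myom2 call in mdx sln+/- was lost without mdx sln+/- 1 too, that in mdx without any library but mdx 2 or mdx sln+/- 2, and the Myom1 call without any library but mdx 1, though each kept its sign under all 21 alternatives. Other genes overlap both (Myl12a on the opposite strand of Myom1 and a pseudogene at Myom2), so their reads may be mixed.

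**Figure D2:**
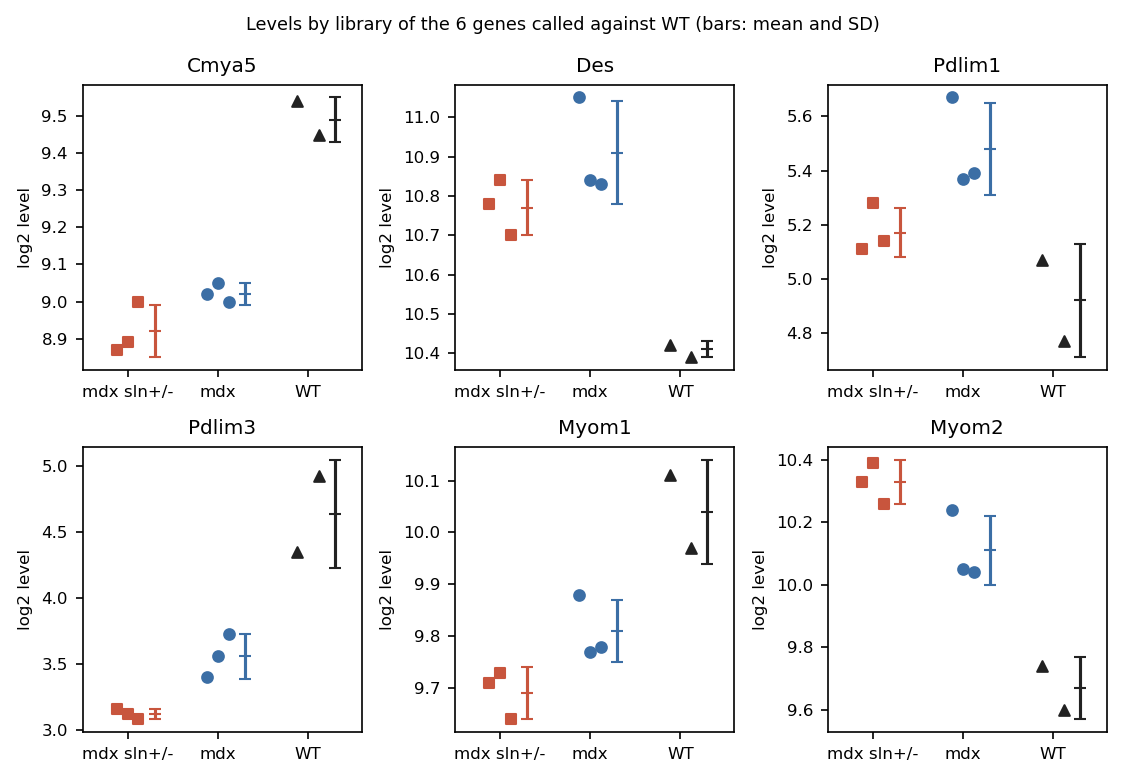
Log2 level by library (y axis) for the 6 genes called against WT, with libraries as points by genotype (x axis) and bars for the mean and SD. Cmya5, Pdlim3 and Myom1 are lower and Des and Myom2 higher in all 6 libraries without dystrophin than in both WT libraries, and mdx sln+/- lies furthest from WT for Pdlim3, Myom1 and Myom2.

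None of the 7 thin filament genes passed the test, and all of their values in mdx against WT were positive, from 0.01 to 0.34. The largest was that of cardiac troponin T, Tnnt2 (chr1:135836354-135852260, plus strand), which anchors troponin to tropomyosin. Its log2 level was 12.04, 12.01 and 11.95 in mdx sln+/- libraries, 11.97, 11.98 and 12.05 in mdx libraries, and 11.78 and 11.54 in WT libraries. All 6 libraries without dystrophin were above WT 1, with an SD of 0.17 between the WT libraries. The value was 0.34 ± 0.12 in each comparison with WT (adjusted p = 0.0952 in mdx sln+/- and 0.0959 in mdx). The inhibitory troponin I gene Tnni3 had 11.75, 11.70 and 11.75 in mdx sln+/- libraries, 11.52, 11.68 and 11.75 in mdx libraries, and 11.52 and 11.49 in WT libraries. The calcium-binding troponin C gene Tnnc1 had 10.34, 10.40 and 10.39 in mdx sln+/- libraries, 10.44, 10.37 and 10.37 in mdx libraries, and 10.35 and 10.20 in WT libraries.

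Tropomyosin covers the myosin-binding sites of actin at rest. Its main cardiac gene Tpm1 had a log2 level of 12.69, 12.72 and 12.75 in mdx sln+/- libraries, 12.64, 12.66 and 12.67 in mdx libraries, and 12.65 and 12.52 in WT libraries. Its log2 fold change was 0.14 ± 0.12 in mdx sln+/- against WT, with an interval of -0.13 to 0.41, and 0.08 ± 0.12 in mdx against WT, with an interval of -0.20 to 0.35. Tpm2 was the thin filament gene with the widest spread, at 3.70, 3.87 and 3.52 in mdx sln+/- libraries, 3.96, 3.95 and 4.44 in mdx libraries, and 3.69 and 4.31 in WT libraries. Lmod2, a leiomodin that lengthens thin filaments, and Tmod1, the tropomodulin that caps their pointed ends, had values of 0.31 ± 0.17 and 0.11 ± 0.12 in mdx sln+/- and 0.29 ± 0.17 and 0.01 ± 0.12 in mdx.

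None of the 5 thick filament genes passed the test either. Cardiac myosin-binding protein C, Mybpc3, a brake on cross-bridge cycling, had the largest values, with a log2 level of 11.66, 11.82 and 11.73 in mdx sln+/- libraries, 11.93, 11.69 and 11.69 in mdx libraries, and 11.43 and 10.97 in WT libraries. Its value was 0.54 ± 0.17 in mdx sln+/- against WT (adjusted p = 0.0689) and 0.57 ± 0.17 in mdx against WT (adjusted p = 0.0607), beside an SD of 0.32 between the WT libraries. The ventricular regulatory light chain gene Myl2 had 12.22, 12.21 and 12.25 in mdx sln+/- libraries, 12.08, 12.16 and 12.18 in mdx libraries, and 12.12 and 12.03 in WT libraries. The essential light chain gene Myl3 had 11.96, 11.98 and 11.95 in mdx sln+/- libraries, 11.88, 11.87 and 11.91 in mdx libraries, and 12.02 and 11.68 in WT libraries, so that WT spanned all others. The myosin heavy chain gene Myh7b and Mylk3, the cardiac myosin light chain kinase, had values of -0.11 ± 0.12 and 0.22 ± 0.11 in mdx sln+/- and 0.07 ± 0.12 and 0.03 ± 0.11 in mdx.

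Of the genes of energy and oxygen supply, Ckm, the muscle creatine kinase that also binds the M-band, had values of 0.36 ± 0.11 in mdx sln+/- against WT (adjusted p = 0.0641) and 0.25 ± 0.11 in mdx against WT (adjusted p = 0.171). Ckmt2, its mitochondrial counterpart, had 0.01 ± 0.14 and -0.05 ± 0.14, and Mb, myoglobin, had 0.20 ± 0.13 and 0.08 ± 0.13, in the same order.

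**Figure D3:**
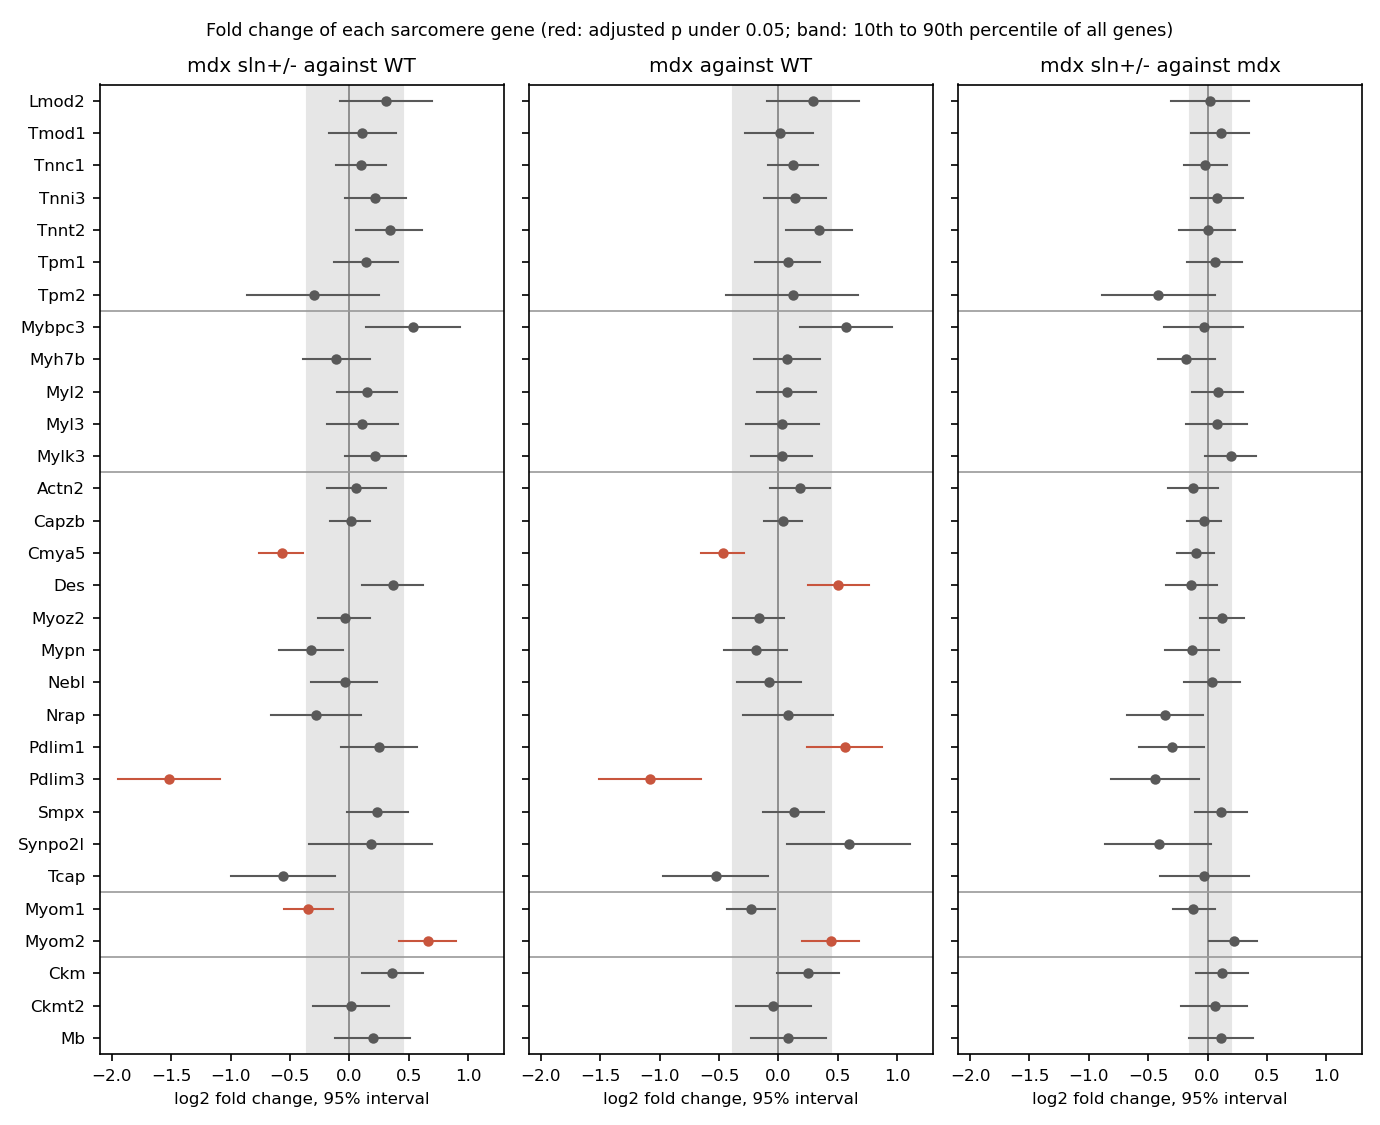
Log2 fold change with its 95% interval (x axis) for each gene (y axis) in mdx sln+/- against WT, mdx against WT and mdx sln+/- against mdx. Points in red passed an adjusted p under 0.05, and the grey band spans the 10th to 90th percentile of all genes tested. Only Pdlim3, Cmya5, Myom1 and Myom2 are red in the first panel and Pdlim3, Cmya5, Des, Pdlim1 and Myom2 in the second, and no point is red in the third.

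Single transcripts were tested in a fit over 29021 transcripts, which was chosen after the gene values were seen. In mdx sln+/- against WT, 13 of 132 transcripts of these genes rose and 11 fell, or 18.2%, beside 10.1% of all transcripts (5.39% higher and 4.74% lower). In mdx against WT, 8 rose and 7 fell, or 11.4%, beside 8.29% of all (4.23% higher and 4.07% lower). Transcript abundances are estimates from reads that transcripts of a gene share, and the r1 and r2 columns of a library gave different counts of calls, so single transcripts are less certain than gene sums. Of the 39 calls, 2 were kept without each library in turn, both of Myl2-207. This shortened coding form of Myl2 had a linear abundance of 16.6, 14.2 and 18.4 in mdx sln+/- libraries, 11.2, 14.9 and 13.2 in mdx libraries, and 3.46 and 3.69 in WT libraries, beside 2470 to 3135 for the main form Myl2-201 over all libraries. It rose by 1.92 ± 0.16 in mdx sln+/- (adjusted p = 0.00182) and by 1.62 ± 0.16 in mdx (adjusted p = 0.00389), and in the r2 columns alone the values were 1.52 and 1.16 (adjusted p = 0.0996 and 0.195).

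Nrap-205, a coding form of the Z-disc assembly protein Nrap, had a linear abundance of 1.65, 1.81 and 1.9 in mdx sln+/- libraries, 3.7, 3.04 and 2.56 in mdx libraries, and 5.79 and 10.4 in WT libraries. Nrap-206, annotated as a target of nonsense-mediated decay, went the other way, with 14.7, 16.6 and 11.2 in mdx sln+/- libraries, 11.8, 9.09 and 11.9 in mdx libraries, and 4.01 and 1.01 in WT libraries. Nrap-205 fell by 1.66 ± 0.24 in mdx sln+/- and by 1.11 ± 0.24 in mdx, and Nrap-206 rose by 2.24 ± 0.37 and 1.90 ± 0.37, each past the test in both comparisons, while the gene sum did not pass it. Both are minor forms, since the gene sum of Nrap had a log2 level of 8.72 to 9.47 over all libraries. Their changes thus concern a small part of the Nrap transcripts. Without WT 2 both calls in mdx were lost and the values were smaller, at -0.74 for Nrap-205 (adjusted p = 0.116) and 1.24 for Nrap-206 (adjusted p = 0.0678). The Nrap-205 call in mdx was kept in 5 of 19 alternatives, and was lost without any library but WT 1, in the r1 columns alone (-0.67) and in the r2 columns alone (-1.55). The Nrap-206 call in mdx was also lost without mdx 1, mdx 3 or mdx sln+/- 1. Without mdx sln+/- 1 both calls in mdx sln+/- were lost (adjusted p = 0.0642 and 0.0766).

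Among the exons in which the troponin T transcripts differ is a short exon of the acidic amino-terminal region, which is kept in fetal hearts and largely skipped in adult ones. Tnnt2-207, which holds it, had a linear abundance of 126, 117 and 101 in mdx sln+/- libraries, 116, 120 and 134 in mdx libraries, and 69 and 56.3 in WT libraries. It rose by 0.86 ± 0.14 in mdx sln+/- against WT (adjusted p = 0.0133) and by 0.97 ± 0.14 in mdx against WT (adjusted p = 0.011). Without WT 2 both calls were lost, at 0.72 in mdx sln+/- (adjusted p = 0.0652) and 0.83 in mdx (adjusted p = 0.059). Tnnt2-207 also lacks an exon of 9 bases that Tnnt2-206 holds. Tnnt2-204 and Tnnt2-205, more abundant forms with the short exon, were called in neither comparison. Tnnt2-209 was called higher in both and Tnnt2-203 in mdx sln+/-, the calls in mdx sln+/- being kept in 4 and 3 of 20 alternatives. Both of these were lost under median-ratio scaling, in the r1 columns alone and in the r2 columns alone. The Tnnt2-209 call in mdx was kept in 12 of 20 alternatives. Without WT 2 the values were 0.28 in mdx sln+/- and 0.46 in mdx for Tnnt2-209, and 0.34 for Tnnt2-203. The share of transcripts with the short exon overlapped between genotypes. The 5 coding forms that hold the exon made up 33.1%, 36.3% and 33.3% of the 10 full-length forms in mdx sln+/- libraries, 36.5%, 34.3% and 38.5% in mdx libraries, and 34.2% and 35.7% in WT libraries. These shares rest on estimated abundances, and reads across the exon junctions were not counted. The shares in WT libraries are larger than such skipping in adult hearts calls for, and why was not tested. The exon of 30 bases is printed in capitals (chr1:135843785-135843814, plus strand, GENCODE M21, GRCm38) with 24 bases of the transcript on either side, above the same junction in Tnnt2-206, which skips it.
Tnnt2-207: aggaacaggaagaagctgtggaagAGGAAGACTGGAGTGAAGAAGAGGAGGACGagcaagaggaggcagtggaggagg
Tnnt2-206: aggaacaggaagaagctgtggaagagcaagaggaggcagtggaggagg

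A second coding form of the light chain kinase Mylk3 was called in mdx sln+/- against WT, where the gene sum did not pass the test. Mylk3-203 starts in its own first coding exon and shares the rest of the coding sequence with the main form Mylk3-201. Mylk3-203 made up 21.7%, 21.6% and 21.8% of the 3 long forms in mdx sln+/- libraries, 17.7%, 19.3% and 20.5% in mdx libraries, and 14.2% and 16% in WT libraries. The 3 genotypes did not overlap, and no test was made of the share. The transcript itself rose by 0.74 ± 0.12 in mdx sln+/- against WT (adjusted p = 0.0137) and had a value of 0.37 ± 0.12 in mdx against WT (adjusted p = 0.0994). The call was lost without WT 2 (0.68, adjusted p = 0.0708), without mdx sln+/- 1 (0.75, adjusted p = 0.0782) and without mdx sln+/- 3, and the value was 0.48 in the r1 columns alone and 1.00 in the r2 columns alone. The start of each form is shown because the coding sequences differ only there: capitals mark the first coding exon of Mylk3-203 (chr8:85380859-85380945, minus strand) and the last 87 bases of the first coding exon of Mylk3-201 (chr8:85364689-85365174, minus strand), and lower case the first bases of the exon they share.
Mylk3-203: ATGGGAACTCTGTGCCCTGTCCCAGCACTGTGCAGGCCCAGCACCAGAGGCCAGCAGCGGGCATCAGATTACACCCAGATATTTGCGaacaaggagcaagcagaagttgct
Mylk3-201: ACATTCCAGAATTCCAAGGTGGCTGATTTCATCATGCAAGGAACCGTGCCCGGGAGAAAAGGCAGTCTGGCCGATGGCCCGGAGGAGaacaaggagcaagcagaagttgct

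Tropomyosin showed the same order in a minor form. Tpm1-201 and the main transcript Tpm1-205 have coding sequences of 852 bases each, in transcripts of 1797 and 1208 bases with 9 and 10 exons. Their exons were not compared. Tpm1-201 made up 2.52%, 2.53% and 2% of both in mdx sln+/- libraries, 1.13%, 1.29% and 1.88% in mdx libraries, and 1.08% and 1.1% in WT libraries. It rose by 1.16 ± 0.20 in mdx sln+/- against WT (adjusted p = 0.0156) and had 0.38 ± 0.20 in mdx against WT (adjusted p = 0.261), while Tpm1-205 had 0.06 ± 0.11 and 0.03 ± 0.11. For Myom1, an exon of 294 bases (chr17:71082203-71082496, plus strand) that lengthens the elastic middle of myomesin 1 is held by Myom1-202. That form made up 10.8%, 10.9% and 12.7% of the 3 Myom1 forms in mdx sln+/- libraries, 13.8%, 15% and 14.3% in mdx libraries, and 11.6% and 13.1% in WT libraries. The mdx libraries thus lay above both other genotypes in this share, while Myom1-202 itself had -0.01 ± 0.09 in mdx against WT (adjusted p = 0.965). Myom1-201 and Myom1-203 had -0.32 ± 0.08 and -0.23 ± 0.11 there. In mdx sln+/- against WT, Myom1-202 fell by 0.45 ± 0.09 (adjusted p = 0.0208), a call lost without WT 2, mdx sln+/- 1 or mdx sln+/- 3. The ends of Myom1-202 and Myom1-203 in the deposited table differ from those in GENCODE M21, while their coding sequence identifiers are the same.

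**Figure D4:**
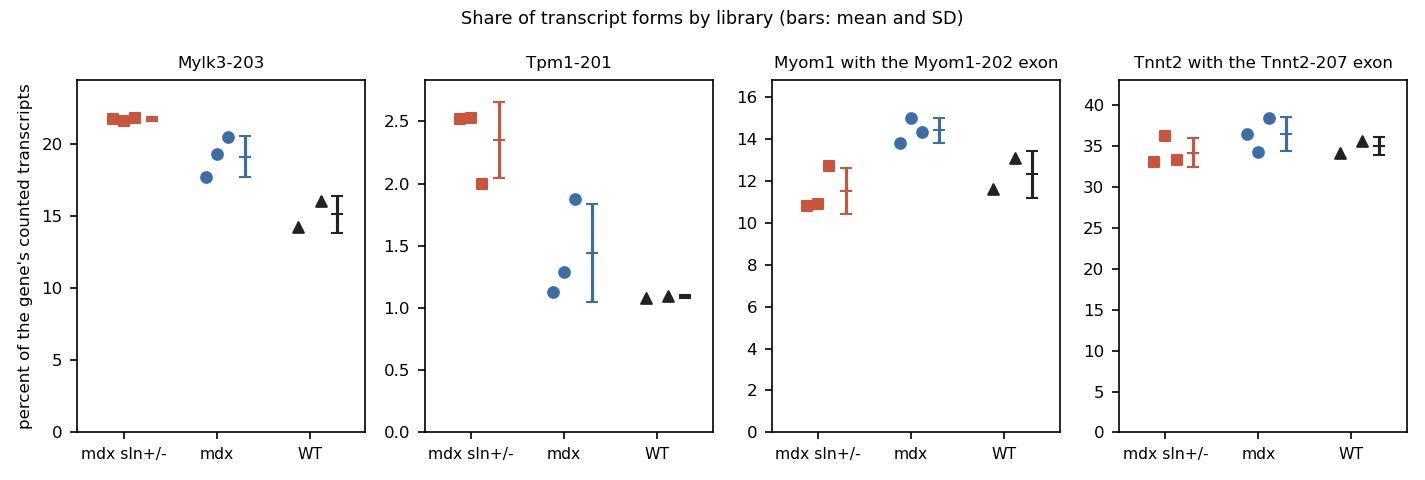
Share of a transcript form among the counted transcripts of its gene (y axis, percent) by library and genotype (x axis), with bars for the mean and SD. Mylk3-203 and Tpm1-201 step down between mdx sln+/-, mdx and WT libraries with no overlap, the Myom1 form is highest in mdx, and the Tnnt2 forms overlap.

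Calls of single transcripts rested on single libraries and columns more than those of genes. Without WT 2, the transcripts called were 8 in mdx sln+/- against WT and 1 in mdx against WT, and without mdx sln+/- 1 they were 1 and 3. The Tpm1-201 call was lost without WT 2 (1.08, adjusted p = 0.082), without mdx sln+/- 1 (1.08, adjusted p = 0.0834), in the r1 columns alone (1.55, adjusted p = 0.101) and in the r2 columns alone (0.76, adjusted p = 0.116). The call of Tnnt2-207 in mdx sln+/- was lost in the r1 columns alone (0.61, adjusted p = 0.0668) and without mdx sln+/- 1 (0.77, adjusted p = 0.0766), and that in mdx in the r2 columns alone (0.92, adjusted p = 0.0722).

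Other genes of the same structures were taken from 4 lists that hold none of the 33. The median log2 fold change of those tested was -0.09, -0.11, -0.10 and -0.01 in mdx sln+/- against WT and 0.05, 0.02, 0.08 and 0.03 in mdx against WT, for thick filament, thin filament, Z-disc and M-band genes in turn. Of 14 other thick filament and titin genes tested, 1 rose and 1 fell in mdx sln+/- against WT, and 1 rose and 2 fell in mdx. Myh7, the slow or fetal myosin heavy chain, rose by 1.10 ± 0.27 in mdx sln+/- (adjusted p = 0.0363) and by 1.42 ± 0.27 in mdx (adjusted p = 0.0175). Its log2 level was 10.90, 11.42 and 11.29 in mdx sln+/- libraries, 12.02, 11.28 and 11.26 in mdx libraries, and 10.05 and 10.16 in WT libraries, so all 6 were above WT. Both Myh7 calls were lost without either WT library and with the most abundant transcript alone, the values without WT 2 being 1.15 in mdx sln+/- (adjusted p = 0.121) and 1.48 in mdx (adjusted p = 0.0765). The call in mdx sln+/- was kept in 10 of 21 alternatives, and was also lost without mdx 2 or any mdx sln+/- library. Myl12b, a light chain of nonmuscle myosin, fell by 0.96 ± 0.13 in each comparison.

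Of 15 other thin filament genes, 1 rose and 3 fell in each comparison with WT. The skeletal actin gene Acta1, expressed in heart beside cardiac actin, had a log2 level of 6.08, 6.61 and 6.80 in mdx sln+/- libraries, 7.57, 7.00 and 6.76 in mdx libraries, and 8.55 and 8.35 in WT libraries. Acta1 fell by 1.96 ± 0.29 in mdx sln+/- (adjusted p = 0.00829) and by 1.34 ± 0.29 in mdx (adjusted p = 0.0248). The call in mdx was lost without WT 2 (-1.44, adjusted p = 0.0914), and also without WT 1 or mdx 3. Lmod3, a leiomodin, rose by 1.09 ± 0.23 and 1.01 ± 0.23 in the same order. Its level was 6.07 in WT 1 and 5.24 in WT 2, and without WT 2 the values were 0.68 and 0.60. Both Lmod3 calls were lost without mdx sln+/- 1 (adjusted p = 0.0685 and 0.0504), that in mdx sln+/- also without mdx sln+/- 3, and that in mdx also without mdx 1 or mdx 3. Capza1, of the barbed-end capping protein, fell by 0.67 ± 0.13 and 0.74 ± 0.13, the call in mdx sln+/- being lost without mdx sln+/- 1 (adjusted p = 0.0817) or mdx sln+/- 3. Of 23 other Z-disc genes, Pdlim5 fell by 0.58 ± 0.08 in mdx sln+/- (adjusted p = 0.0079), and Flnc, filamin C, rose by 0.63 ± 0.17 in mdx (adjusted p = 0.0448). The Pdlim5 call was lost without mdx sln+/- 1 (adjusted p = 0.0586). The Flnc call was kept in 8 of 21 alternatives. It was lost under median-ratio scaling and without any library but WT 1 or mdx 3, and without WT 2 the value was 0.43 (adjusted p = 0.201). Of 8 other M-band and giant protein genes, Obsl1 rose by 0.44 ± 0.09 in mdx sln+/- and by 0.40 ± 0.09 in mdx, and both calls were lost without WT 2 (0.33 and 0.29, adjusted p = 0.0865 and 0.114) and without mdx sln+/- 1 or mdx sln+/- 3, and that in mdx also without mdx 1 or mdx 3. All 17 calls in these lists kept their sign under every alternative, and 4 of them, Myl12b in both comparisons, Acta1 in mdx sln+/- and Capza1 in mdx, were kept without each library in turn.

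The comparison of mdx sln+/- with mdx asks what loss of 1 Sln copy adds to loss of dystrophin. No gene of the 13783 was called (0%), the smallest adjusted p of the 30 genes being 0.578, and a fit with the group only called none either. At an unadjusted p under 0.05, 4 of the 30 genes are counted, against 8.6% of all genes. These were Pdlim3 at -0.44, with a 95% interval of -0.81 to -0.07, Nrap at -0.36 (-0.68 to -0.04), Pdlim1 at -0.30 (-0.58 to -0.03) and Myom2 at 0.22 (0.01 to 0.42). The libraries of the 2 genotypes did not overlap for 13 of 30 genes, 7 above and 6 below, where 24.8% of all genes did not overlap. The tie of mdx 2 and mdx sln+/- 2 to the other libraries bears on both values. Of the 13 Z-disc genes 3 had a positive value, with a median of -0.12, beside 60.3% positive and a median of 0.03 over all genes. The values for thin and thick filament genes lay between -0.42, for Tpm2, and 0.20, for Mylk3, and the intervals of Tnnt2 (-0.24 to 0.23), Tnni3 (-0.14 to 0.30) and Myl2 (-0.13 to 0.30) show the sizes these data allow.

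Among the cell type markers, calls were most frequent for macrophages. The share of all genes called was 15.9% in mdx sln+/- against WT and 15.1% in mdx against WT. The sums of fibroblast, endothelial and blood markers overlapped those of WT in both mdx genotypes. Of 8 macrophage markers, 5 rose in each comparison with WT, and their summed linear level was 236 to 262 in mdx sln+/- libraries, 223 to 277 in mdx libraries and 157 to 166 in WT libraries. Of the 7 ventricular myocyte markers 0 were called in either comparison, and their sum was 45361 to 48004 in mdx sln+/- libraries, 45250 to 49072 in mdx libraries and 41385 to 43325 in WT libraries. Myl2, Myl3, Tnnt2 and Tnni3 are among these markers and belong to the gene set, so this is not a separate measure of myocyte content. Of 9 atrial markers, 6 were measured and 2 rose in mdx, and their sum was 570 to 726 in mdx sln+/- libraries, 586 to 747 in mdx libraries and 355 to 462 in WT libraries. Of 9 smooth muscle and pericyte markers 1 rose in mdx, and their sum was 716 to 877 in mdx sln+/- libraries, 722 to 927 in mdx libraries and 630 to 666 in WT libraries. Of 7 fibroblast markers 1 rose in each comparison, and their sum was 697 to 777 in mdx sln+/- libraries, 706 to 863 in mdx libraries and 596 to 709 in WT libraries. Of 7 endothelial markers 1 rose in each comparison and 1 fell in mdx, and their sum was 627 to 680 in mdx sln+/- libraries, 599 to 699 in mdx libraries and 545 to 631 in WT libraries. Of 5 blood markers 0 were called, and their sum was 289 to 542 in mdx sln+/- libraries, 284 to 904 in mdx libraries and 328 to 471 in WT libraries. Of 12 skeletal muscle markers 3 were measured, at a sum of 48 to 53.7 in mdx sln+/- libraries, 50.6 to 56.5 in mdx libraries and 44.1 to 45.5 in WT libraries. The part of these cell types in the changes of Des, Pdlim1 and the other genes, which smooth muscle or other cells may also express, was not tested.

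Promoters were read for the genes that RefSeq places (GRCm38.p6), from 250 bases before to 50 after the start, for 28 of the 30. The letters CAGCTG, an E-box, stood in the promoters of 13 of the 28 genes, beside 18.3% of all genes, and CATTCC, the core bound by TEAD factors, in 9, beside 16.6%. GATAAG was found in 5 (8.58% of all genes), TATAAA in 2 (15.7%), the MEF2 motif in 3 (3.7%) and the CArG box in 3 (1.81%). Both strands were searched and matches may overlap. Of the 6 genes called, 5 had a promoter here, while that of Myom2 was not read. The promoters of Des and Pdlim3, which moved in opposite directions, both hold CAGCTG. That of Pdlim3 also holds CATTCC and that of Des also GATAAG. These letters describe the windows and say nothing of binding. Both are printed in full, as the called Z-disc genes that hold a match (of the other called genes, Myom1 holds a CArG box), with all matches in capitals (Des chr1:75360042-75360341 and Pdlim3 chr8:45885237-45885536, plus strand).
Des: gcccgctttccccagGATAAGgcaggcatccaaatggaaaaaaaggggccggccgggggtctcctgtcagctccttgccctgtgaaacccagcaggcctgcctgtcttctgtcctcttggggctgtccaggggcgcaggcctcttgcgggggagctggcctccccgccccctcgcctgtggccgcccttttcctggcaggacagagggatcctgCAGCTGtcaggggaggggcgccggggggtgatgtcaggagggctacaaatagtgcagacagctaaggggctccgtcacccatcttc
Pdlim3: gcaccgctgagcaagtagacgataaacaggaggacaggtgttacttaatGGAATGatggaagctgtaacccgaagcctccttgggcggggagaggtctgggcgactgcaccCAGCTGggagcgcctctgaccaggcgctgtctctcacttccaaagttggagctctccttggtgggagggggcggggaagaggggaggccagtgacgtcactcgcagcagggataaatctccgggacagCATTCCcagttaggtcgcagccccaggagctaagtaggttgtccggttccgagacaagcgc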

How the data were processed

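Per the submitters' processing notes, STAR 2.6.1 was used with mm10, as were Partek and limma. The authors deposited normalized log2 values for each transcript. Each of the 8 libraries has a pair of columns, r1 and r2, whose meaning is not given in the sources used here; these correlated at 0.981 to 0.987 and their mean stood for the library. A division by transcript length is not stated, and depth is unknown.

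For each gene the linear abundances of its transcripts were added, and log2(value + 1) was fitted with limma 3.58.1 in R 4.3.3 over all 8 libraries, by empirical Bayes with a trend. Counts would have called for another test, but the values are on a log2 scale. In all transcripts, mdx 2 and mdx sln+/- 2 averaged to the same value as the 4 other libraries of these genotypes (largest difference 5.12e-05). A term for this absent contrast was therefore fitted beside the group, leaving 4 residual degrees of freedom, which assumes that it was removed before deposit. On simulated data for 13679 genes, the fit of mdx against WT recovered 94 of 100 genes changed by a log2 of 1 and 99 of 100 changed by 2, with 10 false calls among 203. That of mdx sln+/- against WT recovered 91 and 99, with 15 false calls among 205. The simulation changed only genes with a mean value of at least 10, with normal noise of the same spread in every group. In the data, the median SD of the sarcomere genes was 0.16 in WT and 0.06 in mdx sln+/- libraries. Changes below a log2 of 1, such as most of those called here, were not simulated, so their recovery is unknown.

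The genes and lists were chosen with earlier results of these data known. By rule, genes of the set that passed the test are given in every library, others by filament-defining genes and ranges, and genes of other lists by smallest adjusted p in each direction. Transcripts and exon shares were chosen after their values were seen. Alternatives changed the scaling, the filter, the pseudocount, the columns, the covariates and the libraries used. Exons come from GENCODE M21, in which 132 of the 138 transcripts start and end within 1 base of the deposited positions, and promoters from RefSeq. Python 3.11.15 served for tables (pandas 2.3.3, numpy 2.4.6) and plots (matplotlib 3.10.9).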

Additional observations from a re-analysis of the deposited data

How the results depend on the processing

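The 9 calls of sarcomere genes kept their sign under all 21 alternatives. Over all genes, median-ratio scaling turned the balance of higher and lower calls, to 928 and 1147 in mdx sln+/- against WT (1297 and 896 as reported) and to 1002 and 1094 in mdx against WT (1123 and 957 as reported). Among values not called, 102 of 1701 had the other sign under an alternative. With the group only and no term for the earlier correction, the counts in mdx sln+/- and mdx against WT were 3996 and 3798 genes, 10 and 9 members, and 45 and 31 transcripts of members. A mean value of at least 10 left 1401 and 1229 genes. With library name style as a term there were 711 and 559 genes, 3 and 0 members, and 8 and 2 transcripts. In libraries without an index code in their names there were 333 and 122 genes, 1 and 0 members, and 1 and 0 transcripts. With the compared groups alone, mdx against WT gave 545 genes, 0 members and 2 transcripts. Without WT 2 and mdx sln+/- 3 there were 39 and 126 genes, and 0 members and 0 transcripts in each. The r1 columns alone gave 15 and 6 transcripts and the r2 columns alone 13 and 2. Leaving out 1 library at a time gave 316 to 2410 and 579 to 1819 genes, 1 to 6 and 2 to 5 members, and 1 to 31 and 1 to 15 transcripts. The comparison of mdx sln+/- with mdx gave 0 calls under every alternative. The causes were not tested, beyond the fewer libraries or genes in a fit.

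Whether the replicate numbers pair the libraries cannot be told from these values. Deviations from the group means of libraries 1 and of libraries 3 of mdx sln+/- and mdx correlated at -0.26 and -0.31. Those of libraries 2 are fixed as opposite by the absent contrast, which also pushes the former correlations to negative values. With the WT library of the same number the correlations were -0.00 and -0.18 for mdx sln+/- 1 and 2, and 0.15 and 0.18 for mdx 1 and 2. The values for libraries 2 are opposite by the same constraint. With the replicate number as a block, 2 residual degrees of freedom were left, and 74 and 54 genes, 0 and 0 members, and 0 and 0 transcripts were called in mdx sln+/- and mdx against WT.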
